A study of Mus musculus with 6 samples.

Results

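The PPAR nuclear receptors and the transcription factors that build and maintain fat cells were examined in single-nucleus RNA sequencing of mouse white adipose tissue (WAT). The set holds 10 genes of the 56980 listed in the count matrices, chosen by gene symbol: Ppara, Ppard and Pparg, their partner Rxra, the C/EBP factors Cebpa and Cebpb, the Krüppel-like factor Klf15, the early B-cell factors Ebf1 and Ebf2, and the zinc finger factor Zfp423. Each symbol matched 1 row. The tissue came from female C57BL/6J mice with no transgene or drug named. Subcutaneous fat (SAT) from the inguinal depot was taken at 2 months and at 24 months, visceral fat (VAT) from around the gonads at 24 months, and each of these 3 groups had 2 libraries. The older age follows the labels, since the study's text names a different one, and young VAT is not analysed here. The study took both depots from 2 mice per age, so the depots at 24 months may share mice. Which libraries belong to the same mouse is not stated, and p-values measure the spread between these libraries.

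PPARgamma, encoded by Pparg, is the nuclear receptor that drives fat cell differentiation and lipid storage, and it binds DNA together with a retinoid X receptor such as RXRalpha (Rxra). PPARalpha (Ppara) turns on genes of fatty acid oxidation, and PPARdelta (Ppard) is a broadly expressed relative. C/EBPbeta (Cebpb) acts early in adipogenesis, while C/EBPalpha (Cebpa) and Klf15 act later, in maturing adipocytes. EBF1 acts in adipocytes and is also required for the B cell lineage. EBF2 is known for its role in brown and beige fat, and Zfp423 marks committed preadipocytes and restrains the beige programme in white adipocytes.

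All 10 are protein-coding genes in GENCODE release M39 on GRCm39. Pparg lies at chr6:115337675-115468268 and Klf15 at chr6:90438998-90452220. Ppara lies at chr15:85618656-85687067, Ppard at chr17:28451674-28520448 and Rxra at chr2:27566452-27653330. Cebpa spans chr7:34818718-34821353 and Cebpb chr2:167530835-167532338. Ebf1 covers chr11:44508138-44898918, Ebf2 chr14:67470736-67668394 and Zfp423 chr8:88388438-88687289. Zfp423 is on the minus strand and the other 9 are on the plus strand. Annotated genes on the opposite strand overlap Pparg, Ppara, Ppard, Cebpa, Cebpb, Ebf1, Ebf2 and Zfp423, and whether the counting used strand is not stated. On the same strand, Gm74738 overlaps Rxra and Gm65514 overlaps Ppard.

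Nuclei with more than 500 genes, more than 1000 UMIs and less than 15% mitochondrial counts were kept, which left 27074 of 50859 barcodes, between 2490 and 5776 nuclei per library, with medians of 1380 to 1878 UMIs. A UMI is a unique molecular identifier and stands for 1 captured RNA molecule. Clusters were named from marker genes, and adipocyte-like and fibro-adipogenic progenitor-like nuclei are called adipocytes and FAPs here for short. Adipocytes numbered 896 and 514 in SAT at 2 months, 684 and 2186 in SAT at 24 months, and 2884 and 152 in VAT at 24 months. All 10 adipocyte markers were detected in every adipocyte sum, and their summed level lay between 12456 and 14398 CPM. VAT replicate 2 stood apart from the other libraries, with 961 nuclei that carried ovary or oviduct markers. Its FAPs had a summed FAP marker level of 4732 CPM, against 24980 to 41050 CPM in the other 5 libraries, and a summed mesothelial marker level of 2768 CPM, against 2.79 to 232 CPM. The names mesothelial and epithelial did not hold in all libraries. Nuclei named mesothelial summed to 4211 to 5414 CPM of mesothelial markers in VAT but 0 to 68.3 CPM in SAT, where the epithelial markers summed to 1472 to 2235 CPM, and nuclei named epithelial lacked that marker pattern in VAT. Clustering without the Harmony correction put 0 VAT nuclei under the epithelial name and at most 2 nuclei of any SAT library under the mesothelial one. Libraries shared at most 0.769% of their barcodes. A level is given as counts per 1000000 UMIs summed over the nuclei of 1 class in 1 library (CPM), and levels are compared for the same gene only. Less RNA per nucleus and fewer nuclei of a state within a class cannot be told apart in such a sum.

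Pparg had its highest level in adipocytes, with 2216 ± 865 CPM (SD, n = 6 libraries). Next came endothelial nuclei at 517 ± 302 CPM and macrophages at 447 ± 259 CPM, and the ranges of these last classes overlapped. Adipocyte markers summed to 716 to 8004 CPM in the endothelial nuclei and to 596 to 4120 CPM in the macrophages, and their part in these Pparg levels was not tested. The lowest adipocyte library, at 1342 CPM, lay above the highest endothelial library, at 1029 CPM. Thinned to 1000 UMIs per nucleus, 58.8% to 86.4% of adipocytes had a Pparg UMI, against 13.7% to 49.2% of endothelial nuclei, 14.0% to 26.7% of macrophages and 1.7% to 3.5% of T cells. The T cells serve as a low reference, not as nuclei free of Pparg, since 703 of them lay in a cluster led by Ctla4, Il2ra and Foxp3, genes of regulatory T cells, which can use Pparg in fat. Without thinning the shares of adipocytes and T cells were 70.2% to 94.6% and 1.9% to 4.1%, at median depths of 1554 to 2258 UMIs in adipocytes and 1248 to 1451 UMIs in T cells. Intervals and shares of this kind cover counting error only.

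Ppara was also highest in adipocytes, at 237 ± 173 CPM (n = 6). Skeletal muscle nuclei, at 107 and 209 CPM, and ovary or oviduct nuclei, at 124 and 111 CPM, came next in the 2 libraries that held enough of each. Most of the 981 ovary or oviduct nuclei lay in VAT replicate 2, so the 124 CPM came from a small sum. Macrophages had 57.4 ± 43.6 CPM and FAPs 26.8 ± 11.6 CPM, with overlapping ranges. Nuclei named mesothelial had 30.4 and 118 CPM in VAT, and those named epithelial 1.74 to 8.43 CPM in SAT but 249 and 152 CPM in VAT. In VAT replicate 2, whose adipocytes had 96.7 CPM, the skeletal muscle, ovary or oviduct, mesothelial and epithelial nuclei were all higher, and in SAT at 24 months replicate 2 the 25 skeletal muscle nuclei (107 CPM, from 5 UMIs) exceeded the adipocytes (83.2 CPM). B cells, at 14.3 ± 17.4 CPM, and T cells, at 9.02 ± 8.11 CPM in 5 libraries, were near the bottom. Ppard had no class above the rest, with 74.3 ± 12.5 CPM in macrophages, 51.3 ± 13.4 CPM in adipocytes and 40.8 ± 11.4 CPM in FAPs. Ovary or oviduct nuclei had 0 and 27.7 CPM of Ppard in 2 libraries. The 0 came from the same small sum, and 27.7 CPM lay above the lowest FAP library, at 23.5 CPM. Rxra likewise overlapped between macrophages (71.4 ± 31.3 CPM), adipocytes (43.3 ± 23.4 CPM) and FAPs (25.3 ± 14.2 CPM), and was lowest in mature dendritic cells, at 4.93 ± 4.58 CPM in 5 libraries.

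Cebpa and Klf15 followed the adipocytes less cleanly. Cebpa stood at 208 ± 94.8 CPM in adipocytes, 94.5 ± 130 CPM in endothelial nuclei and 86.6 ± 51.7 CPM in macrophages. In SAT at 24 months replicate 2, Cebpa was as high in endothelial nuclei (354 CPM) as in adipocytes (352 CPM), and its macrophages (182 CPM) and FAPs (103 CPM) were also the highest of their classes. The endothelial nuclei of that library also had the highest sum of adipocyte markers, 8004 CPM. Klf15 stood at 155 ± 45.7 CPM in adipocytes and at 49.6 ± 32.9 CPM in endothelial nuclei, and was higher in adipocytes than in endothelial nuclei in 6 of 6 libraries. Skeletal muscle nuclei had 257 CPM in SAT at 24 months replicate 2, from 12 UMIs in 25 nuclei and above every adipocyte library, and 7.45 CPM in VAT replicate 2. Cebpb had no adipocyte preference: macrophages had 151 ± 54.1 CPM, conventional dendritic cells 163 ± 166 CPM and adipocytes 131 ± 43.2 CPM, while mesothelial nuclei had 311 and 125 CPM in VAT and epithelial nuclei 112 to 199 CPM in SAT.

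The EBF genes were spread differently over the classes. Ebf1 was high in adipocytes (2558 ± 1508 CPM), FAPs (2074 ± 1112 CPM), B cells (1478 ± 524 CPM) and endothelial nuclei (1200 ± 636 CPM), and low in T cells (70.0 ± 25.6 CPM, n = 5). The ranges of the first 4 classes overlapped, so their order is not set by these libraries. The endothelial class also held smooth muscle or pericyte markers, which summed to 347 to 2834 CPM against 3410 to 6592 CPM for the endothelial markers, and its larger cluster of 1048 nuclei was led by Rgs5, a pericyte gene. Without Harmony the cluster led by Rgs5 stayed unnamed. The part of these markers in the endothelial levels was not tested. Ebf2 was higher in FAPs (626 ± 380 CPM) than in adipocytes (169 ± 76.3 CPM) in 5 of 6 libraries, the exception being VAT replicate 2. Its level was 10.8 ± 6.10 CPM in B cells, where Ebf1 was high. Zfp423 was not highest in FAPs: adipocytes had 208 ± 71.1 CPM, endothelial nuclei 142 ± 81.3 CPM and FAPs 56.2 ± 35.0 CPM, and adipocytes exceeded FAPs in every library.

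**Figure D1:**
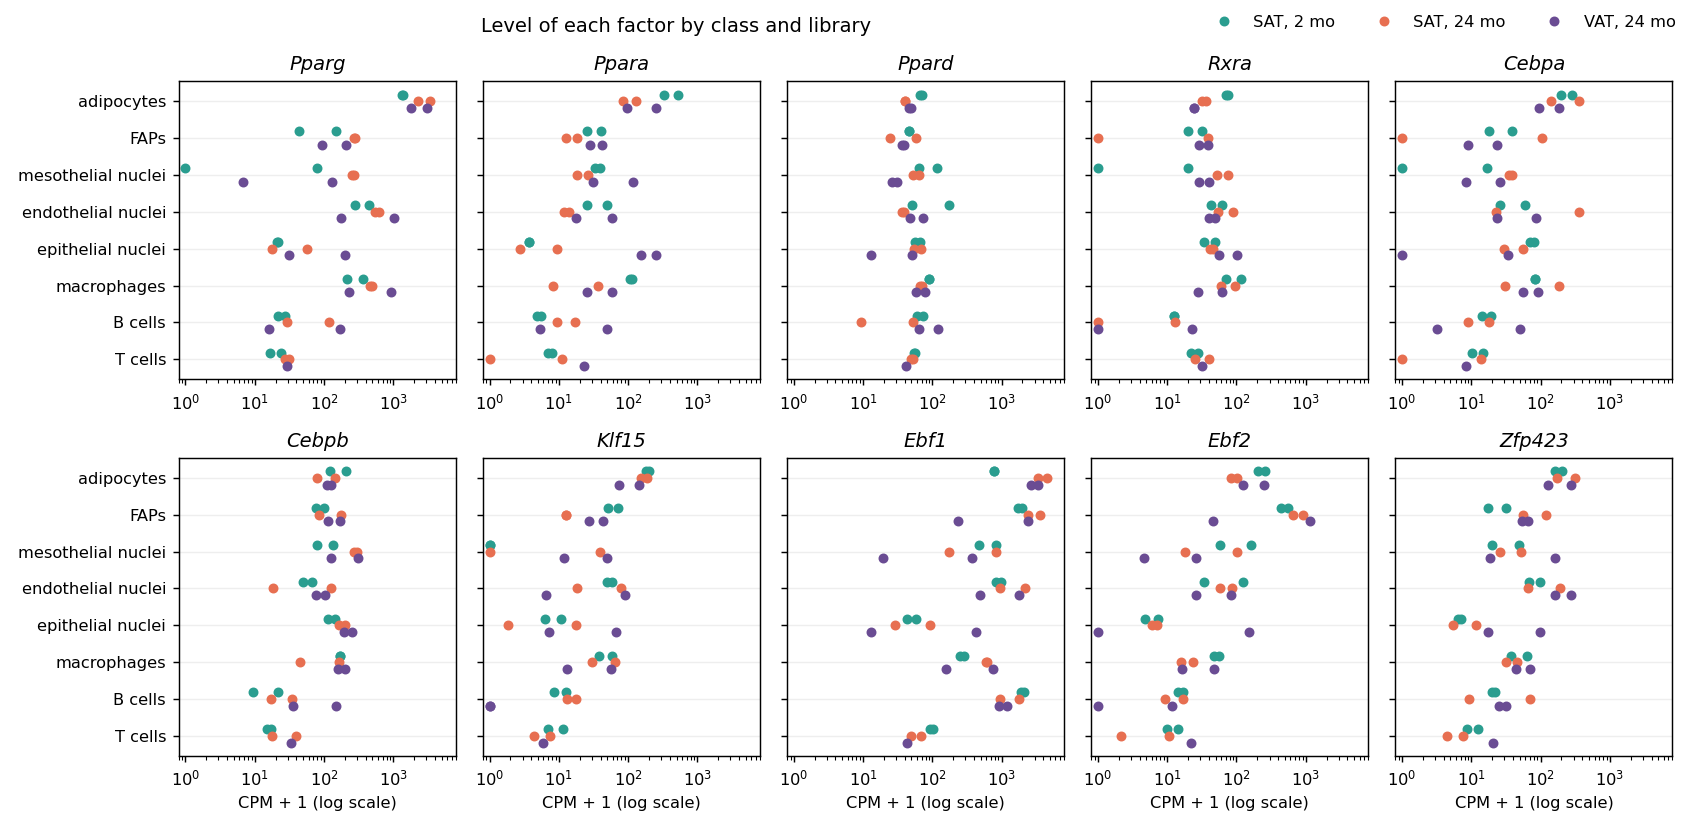
Level of each factor (CPM + 1, log axis) in 8 classes, 1 point per library with at least 20 nuclei of the class, coloured by group. Pparg in adipocytes lies above every other class in all 6 libraries, Ebf1 is high in adipocytes, FAPs, endothelial nuclei and B cells, and Ebf2 of the FAPs drops to 45.2 CPM in VAT replicate 2.

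Genes with the most similar pattern were sought over 64 sums of 1 class in 1 library, among 9566 genes with a mean of at least 20 CPM. These sums share libraries, so the correlations are a description. The closest to Pparg were Cidec (Pearson r = 0.92), a lipid droplet protein gene, Nnat (0.90) and Tspan12 (0.89). Cebpa was closest to Car3 (0.84), Plin1 (0.84) and Retn (0.83), all expressed in mature adipocytes. Genes close to Klf15 included Itga7 (0.87) and Ces1d (0.86), and Ppara was closest to Tead1 (0.78), Mlxipl (0.76), which encodes the carbohydrate-response factor ChREBP, and Ptprd (0.72). Ebf2 went with Abca8a (0.88), the collagen gene Col5a1 (0.86) and Srgap1 (0.86), and Ebf1 with Arhgap24 (0.83), the basement membrane gene Nid1 (0.80) and Slit3 (0.78). Zfp423 was nearest to Pdzd2 (0.89), Tspan18 (0.77) and Arhgap23 (0.76), and Cebpb to Ltbp3 (0.75), Zfp503 (0.75) and Marchf8 (0.70). Correlations were lowest for Rxra, with Selenop (0.64), Eci2 (0.63) and Tle1 (0.63), and for Ppard, with Mcoln1 (0.62), Tysnd1 (0.62) and Fancg (0.61).

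The first comparison asked how the factors differ between young and aged subcutaneous adipocytes. Ebf1 and Pparg were higher at 24 months, and Ppara, Ebf2 and Rxra were lower. Thus 5 of 10 members passed the test (edgeR's quasi-likelihood test, Benjamini-Hochberg adjusted p under 0.05), and 14.2% of all 12939 genes tested in adipocytes did so, 869 higher and 972 lower. With scaling by library size alone the called genes were 662 higher and 1361 lower. The 2 members that rose compare with 6.72% of all genes that rose, and the 3 that fell with 7.51% that fell. Ppard, Cebpa, Cebpb, Zfp423 and Klf15 did not pass.

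Ebf1 had 774 and 778 CPM in the libraries at 2 months, and 4511 and 3310 CPM at 24 months. Both aged libraries were far above both young ones, which were close together. The log2 fold change was 2.50 ± 0.33 (SE), a 5.66-fold rise, with an adjusted p of 0.000735. Ebf1 passed the test in all 18 fits that were run, with log2 fold changes of 2.30 to 2.78. The share of adipocytes with an Ebf1 UMI, thinned to 1000 UMIs per nucleus, was 42.1% and 46.1% at 2 months and 95.2% and 89.2% at 24 months, and without thinning 62.3%, 59.9%, 98.0% and 95.1%. T cells had thinned shares of 7.1%, 7.8%, 4.5% and 5.9% in the same libraries.

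Pparg, the master regulator of the lineage, was at 1375 and 1342 CPM at 2 months and at 3362 and 2289 CPM at 24 months. The groups did not overlap, and the aged libraries differed from each other by more than the young ones did. Its log2 fold change was 1.23 ± 0.36, a 2.34-fold rise (adjusted p = 0.0397). The call was near the threshold: 13 of 18 fits passed it, with adjusted p from 0.00122 to 0.235. It was lost without either library at 2 months and without SAT at 24 months replicate 1. Scaling by library size alone and keeping only nuclei over 1500 UMIs lost it as well.

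Ppara went the other way. It had 333 and 529 CPM at 2 months against 127 and 83.2 CPM at 24 months, and again the groups did not overlap. The log2 fold change of -1.87 ± 0.42 corresponds to a 3.67-fold lower level (adjusted p = 0.0128). It passed in 16 of 18 fits, and lost the call without SAT at 2 months replicate 2, where the adjusted p was 0.101, and with DESeq2. Thinned shares of adipocytes with a Ppara UMI were 22.0% and 29.6% at 2 months and 9.2% and 7.9% at 24 months, against at most 0.9% of T cells in those libraries. The unthinned shares were 34.3%, 37.7%, 17.8% and 14.1%.

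Ebf2 was at 203 and 257 CPM at 2 months and at 81.4 and 99.5 CPM at 24 months, opposite in direction to Ebf1. Its log2 fold change was -1.17 ± 0.32 (adjusted p = 0.0298), and 14 of 18 fits passed. The fits without 1 of the same 3 libraries were among those that did not. Rxra had 70.6 and 75.1 CPM at 2 months and 30.8 and 35.9 CPM at 24 months, with a log2 fold change of -0.95 ± 0.26 (adjusted p = 0.0323). The Rxra call held in 11 of 18 fits, and was lost when any 1 of the 4 subcutaneous libraries was left out. Without SAT at 2 months replicate 2, only Ebf1 of the 10 members passed.

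Of the 5 members that did not pass, Ppard came nearest, with 65.2 and 70.6 CPM at 2 months and 39.7 and 39.3 CPM at 24 months. The libraries of its groups did not overlap, but the adjusted p was 0.121 for a log2 fold change of -0.62 ± 0.25. Zfp423 had a log2 fold change of 0.58 ± 0.38 (204 and 158 CPM against 313 and 173 CPM) and Cebpb one of -0.37 ± 0.32 (123 and 206 CPM against 77.3 and 145 CPM). Cebpa had 281 and 198 CPM against 140 and 352 CPM, so that its aged libraries lay on both sides of the young ones. Klf15 had 201 and 179 CPM against 155 and 183 CPM, a log2 fold change of -0.01 ± 0.29 whose sign differed between fits.

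**Figure D2:**
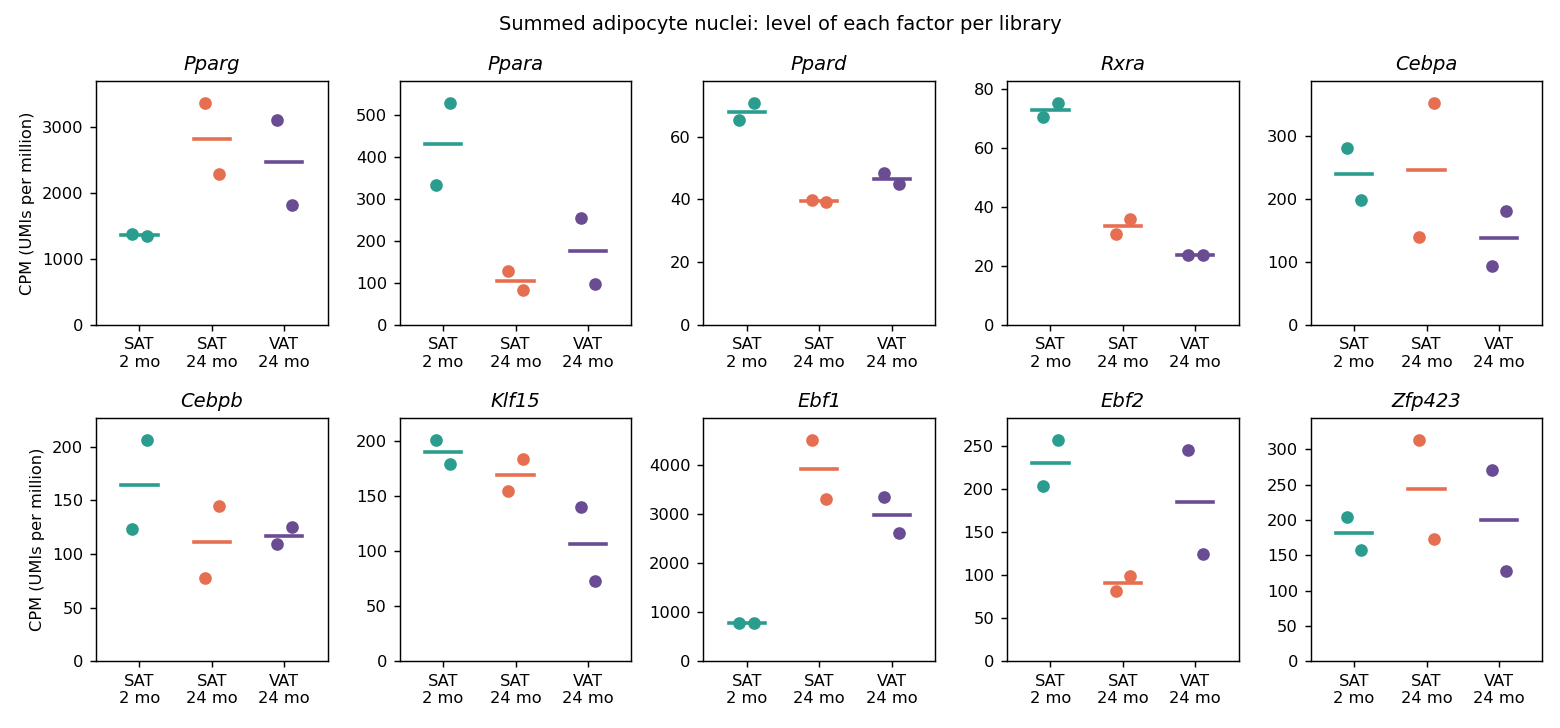
Level of each factor (CPM, axes from 0) in summed adipocyte nuclei, 1 point per library, with the mean of each group of 2 as a bar. Ebf1 and Pparg are higher and Ppara, Ebf2 and Rxra lower in both SAT libraries at 24 months than in both at 2 months, and the aged Ebf1 points sit at 3310 and 4511 CPM above 774 and 778 CPM.

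Other markers moved with age in the same adipocyte sums. The 8 immune markers summed to 567 to 1107 CPM at 2 months and to 120 to 196 CPM at 24 months. The 6 thermogenic markers summed to 84.1 to 99.8 CPM at 2 months and to 36.9 to 56.5 CPM at 24 months, and the 11 FAP markers to 1695 to 2261 CPM and 2291 to 5037 CPM. The T cell markers summed to 266 to 484 CPM against 33.9 to 59.5 CPM, the B cell markers to 261 to 390 CPM against 37.7 to 78.7 CPM, and the endothelial markers to 78.7 to 120.0 CPM against 43.1 to 73.4 CPM. The epithelial markers summed to 59.8 to 96.4 CPM against 28.1 to 46.8 CPM, the mesothelial markers to 21.0 to 26.9 CPM against 5.47 to 5.92 CPM, and the ovary or oviduct markers to 45.8 to 65.0 CPM against 19.4 to 22.6 CPM. The Schwann markers were lower at 2 months, at 221 to 412 CPM against 435 to 481 CPM. The lymph node markers summed to 108 to 176 CPM against 13.3 to 15.7 CPM, and the mature dendritic markers to 64.1 to 158 CPM against 29.8 to 35.6 CPM. Over all nuclei of a library, the median share of mitochondrial UMIs was 1.72% and 0.918% in SAT at 2 months and 3.49% and 2.91% at 24 months. Their part in the changes of the members was not tested.

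The adipocytes fell into 5 clusters, 4 of which were present in all subcutaneous libraries. Ebf1 and Pparg were higher at 24 months in both libraries against both in 4 of 4 clusters, and Ppara was lower in 4 of 4. The gap was narrow for Pparg in cluster 21, with 1171 and 1208 CPM at 2 months and 2792 and 1232 CPM at 24 months. In the largest, cluster 0, Ebf1 had 1019 and 978 CPM at 2 months and 5022 and 3869 CPM at 24 months. In cluster 1, led by Fam13a and Cyp2e1, Ppara had 371 and 578 CPM against 101 and 96 CPM. Ebf2 and Rxra were lower in 3 of 4 clusters and overlapped in the other. Of the members not called, Ppard was lower in 2 of 4 clusters, Cebpb and Klf15 in 1 of 4 each, and Zfp423 was higher in 1 of 4. The libraries of Cebpa overlapped in all 4. These clusters are parts of the sums in which the 5 members were called, so they are no separate test. The share of all genes whose libraries do not overlap was not computed.

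**Figure D3:**
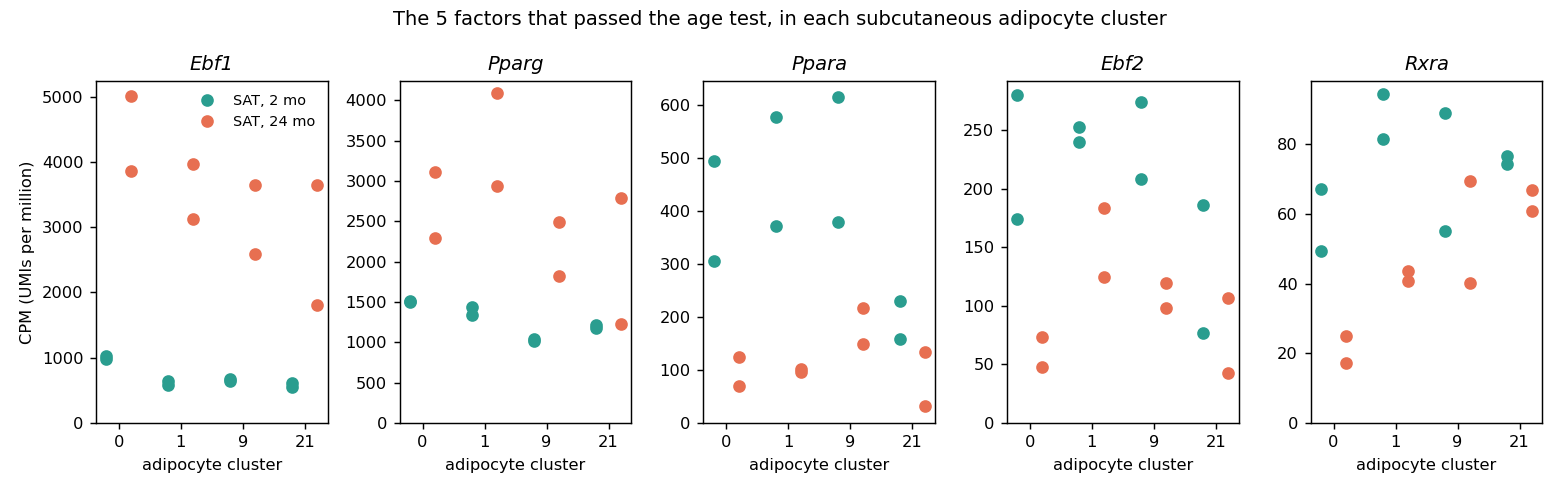
Level (CPM) of the 5 factors that passed the age test in 4 clusters of subcutaneous adipocytes, 1 point per library. Within every cluster the aged Ebf1 and Pparg points lie above and the aged Ppara points below the young ones, while Rxra overlaps in cluster 9 and Ebf2 in cluster 21.

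With Pparg higher and Ppara lower, the make-up of the PPAR transcripts differed between the ages. Ppara gave 618 of the UMIs of the 3 PPAR genes in SAT at 2 months replicate 1, a share of 18.8% (95% exact binomial interval 17.5% to 20.2%), and 27.3% (25.2% to 29.4%) in replicate 2. At 24 months its share was 3.61% (3.11% to 4.15%) and 3.45% (3.15% to 3.77%). The means were 23.0% ± 5.99 and 3.53% ± 0.110 (SD, n = 2), a difference of -19.5 percentage points. An exact two-sided permutation test of 2 libraries against 2 gave p = 0.33, the smallest it allows. Ppard made up 3.68% and 3.64% at 2 months and 1.12% and 1.63% at 24 months. These are shares of counted UMIs, not corrected for gene length, and say nothing of protein.

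**Figure D4:**
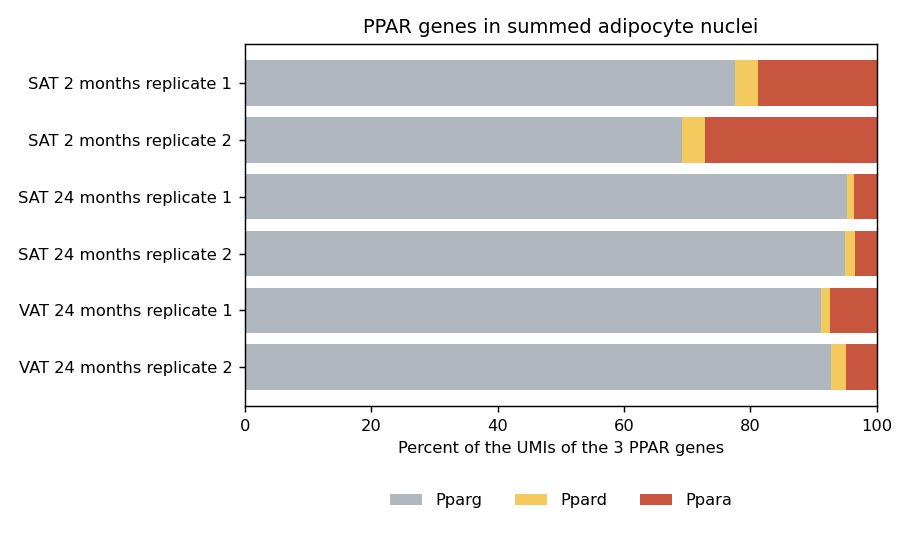
Percent of the UMIs of Pparg, Ppard and Ppara in summed adipocyte nuclei that each gene gave, 1 bar per library. Ppara takes 18.8% and 27.3% in young SAT and 3.45% to 7.45% in the 4 libraries at 24 months.

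The wider PPAR and adipogenic network was followed in subcutaneous adipocytes through 5 lists, 94 genes in all, of which 82 were tested. With age 4 rose and 9 fell, 15.9% against 14.2% of all genes, and their median log2 fold change of 0.01 was close to the -0.00 of all genes. Among the partners and coregulators, 1 of 15 tested genes rose and 1 fell. Rxrg, a second retinoid X receptor gene, had 19.4 and 15.7 CPM at 2 months and 28.1 and 43.0 CPM at 24 months (log2 fold change 1.17 ± 0.35). Lpin1, which encodes a phosphatidate phosphatase and transcriptional coactivator, had 1011 and 963 CPM at 2 months and 211 and 228 CPM at 24 months (log2 fold change -2.01 ± 0.26). Ppargc1a, the coactivator PGC-1alpha, had 42.6 and 30.3 CPM against 29.4 and 35.0 CPM and did not pass.

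Of 16 PPARgamma target genes tested, only 1 passed, 6.25% against 14.2% of all genes. This was Cd36, the fatty acid transporter gene. It had 907 and 672 CPM at 2 months and 2031 and 2584 CPM at 24 months (log2 fold change 1.70 ± 0.30). The other 15 did not pass, among them Adipoq, the adiponectin gene, with 1177 and 1052 CPM against 430 and 1408 CPM, and Lpl, lipoprotein lipase, with 3561 and 2772 CPM against 1671 and 5130 CPM. Several of these targets also served as adipocyte markers. The list's median log2 fold change was 0.17.

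Among 22 PPARalpha and PPARdelta target genes tested, 4 fell and none rose, 18.2% against 14.2% of all genes, with a median log2 fold change of -0.27. Plin5, which couples lipid droplets to mitochondria, was at 19.4 and 30.3 CPM at 2 months and at 4.11 and 4.66 CPM at 24 months (log2 fold change -2.28 ± 0.57). Pex11a, a peroxisome division gene, was at 151 and 187 CPM against 41.1 and 73.2 CPM (-1.37 ± 0.28). Slc25a20, the mitochondrial carnitine-acylcarnitine carrier, was at 135 and 108 CPM against 44.5 and 51.5 CPM (-1.18 ± 0.26), and Acaa1b, a peroxisomal thiolase, at 461 and 417 CPM against 167 and 204 CPM (-1.08 ± 0.26). Cpt1a, the gate of mitochondrial fatty acid import, had 11.9 and 21.3 CPM against 34.9 and 16.0 CPM and did not pass.

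Of 15 other pro-adipogenic factors tested, 2 fell and none rose, 13.3% against 14.2% of all genes. Srebf1, the lipogenic factor SREBP-1, had 646 and 776 CPM at 2 months and 163 and 228 CPM at 24 months (log2 fold change -1.70 ± 0.29), and Stat5a had 279 and 251 CPM against 91.7 and 126 CPM (-1.12 ± 0.25). Of 14 factors that restrain adipogenesis, 2 rose and 2 fell, 28.6% against the same 14.2%. The Hippo pathway coactivators Wwtr1 (98.6 and 115 CPM against 200 and 187 CPM) and Yap1 (66.8 and 58.3 CPM against 96.5 and 96.5 CPM) rose, with log2 fold changes of 1.03 ± 0.25 and 0.77 ± 0.24. Zfp521, an antagonist of EBF1 and Zfp423, had 37.7 and 53.8 CPM against 15.1 and 10.6 CPM (-1.70 ± 0.39), and Klf2 had 48.0 and 107 CPM against 28.1 and 23.0 CPM (-1.42 ± 0.39). Without SAT at 2 months replicate 2 only 3 list genes passed in place of 13, and without replicate 1 of that group 6 did. Over all genes the calls went from 1841 to 527 and 693 in the same fits.

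The second comparison set visceral against subcutaneous adipocytes at 24 months. None of the 10 members passed the adjusted test with edgeR or DESeq2, and 0.131% of all genes did so with edgeR. At an unadjusted p under 0.05, where 6.8% of all genes lay, 1 member was found, Ebf2, with 245 and 125 CPM in VAT against 81.4 and 99.5 CPM in SAT (log2 fold change 1.13 ± 0.32, adjusted p = 0.347). Both VAT libraries were above both SAT libraries, and replicate 1 was about as high as SAT at 2 months. In the same adipocyte sums at 24 months the mesothelial markers were at 45.5 to 125 CPM in VAT against 5.47 to 5.92 CPM in SAT, the ovary or oviduct markers at 19.4 to 259.5 CPM against 19.4 to 22.6 CPM, and the FAP markers at 2034 to 2175 CPM against 2291 to 5037 CPM. The median mitochondrial share was 0.776% and 5.07% in the VAT libraries. The part of these in the depot values was not tested.

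Ppara in VAT had 254 and 96.7 CPM, so that 1 library was above and 1 within the SAT range of 83.2 to 127 CPM. The log2 fold change was 0.87 ± 0.41 (adjusted p = 0.733), and -0.15 without VAT replicate 1. That library held 85 of the 98 nuclei of an adipocyte cluster led by Ppara, in which Ppara reached 3777 CPM. Without this cluster, an alternative added after seeing the data, the log2 fold change was 0.55 (adjusted p = 0.801) and the difference in the Ppara share described next was 1.72 percentage points. Ppara gave 7.45% of PPAR UMIs in VAT replicate 1 and 4.93% in replicate 2, against 3.61% and 3.45% in SAT, a mean difference of 2.66 percentage points (exact permutation p = 0.33, the smallest allowed).

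Pparg (3106 and 1819 CPM) and Ebf1 (3353 and 2619 CPM) in VAT overlapped the SAT values at 24 months, with log2 fold changes of -0.16 ± 0.35 and -0.36 ± 0.31. Rxra was at 23.6 and 23.6 CPM, below both SAT libraries (log2 fold change -0.46 ± 0.28). Klf15, at 140 and 73.1 CPM, also lay below both (-0.54 ± 0.30), and Ppard, at 48.4 and 44.8 CPM, above both (0.31 ± 0.26). Cebpa was at 93.1 and 182 CPM (-0.89 ± 0.42), and it passed the test only when SAT at 24 months replicate 1 was left out. Zfp423 (271 and 127 CPM) and Cebpb (109 and 125 CPM) had log2 fold changes of -0.19 ± 0.38 and 0.08 ± 0.32. Of the 82 list genes tested, 0 passed with edgeR, and DESeq2 gave 0 as well.

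In FAPs, the progenitors of adipocytes, none of the 10 members passed in either comparison with edgeR or DESeq2, and 0.0% of 8252 genes did so with edgeR. Unadjusted, 3 members were under 0.05 with age, against 10.5% of all genes, and 1 between depots, against 5.63%. Klf15 had 50.3 and 70.1 CPM in SAT at 2 months and 11.8 and 11.5 CPM at 24 months (log2 fold change -2.34 ± 0.68, adjusted p = 0.351), the aged values resting on 1 and 4 UMIs. Zfp423 had 30.7 and 16.2 CPM against 118 and 54.6 CPM (1.74 ± 0.58, adjusted p = 0.379), and Pparg 148 and 43.1 CPM against 282 and 267 CPM (1.54 ± 0.62, adjusted p = 0.434). The groups did not overlap for any of these genes, which were picked by their p in the same libraries. Ebf1 and Ebf2, given below, did not overlap with age either, and the share of all genes without overlap was not computed. The aged FAPs of replicate 1 were only 58 nuclei. In the same FAP sums the immune markers were at 838 to 1181 CPM at 2 months and 135 to 400 CPM at 24 months, and the adipocyte markers at 440 to 743 CPM and 247 to 1689 CPM. The T cell markers (436 to 558 CPM against 60.3 to 94.2 CPM), the B cell markers (296 to 415 CPM against 35.3 to 54.6 CPM), the lymph node markers (184 to 332 CPM against 34.5 to 35.3 CPM) and the mature dendritic markers (156 to 251 CPM against 58.8 to 91.9 CPM) were also lower at 24 months. Their part was not tested.

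Ebf1 in FAPs had 1992 and 1731 CPM at 2 months, 3625 and 2439 CPM at 24 months and, in VAT, 2425 and 231 CPM. Ebf2 had 562 and 440 CPM, 906 and 664 CPM, and 1141 and 45.2 CPM in the same order. Both genes were thus low in VAT replicate 2 alone, the library whose FAP markers were low. Without VAT replicate 1, so that only replicate 2 stood for VAT, Ebf1 (log2 fold change -3.73, adjusted p = 0.00126) and Ebf2 (-4.12, adjusted p = 0.00034) passed between depots, and without VAT replicate 2 they had log2 fold changes of -0.23 and 0.64 and did not pass.

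**Figure D5:**
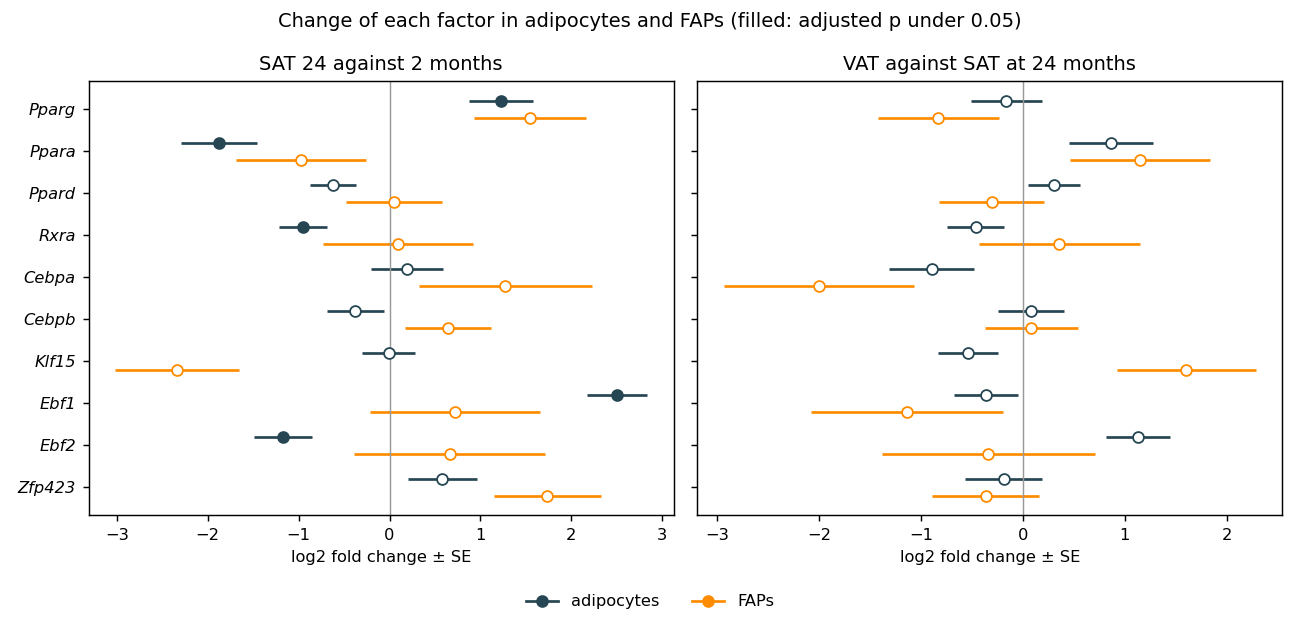
Log2 fold change ± SE of each factor with age in SAT (left) and between depots at 24 months (right), in adipocytes and FAPs, fitted over 2 libraries per group. Filled points passed the adjusted test: Ebf1, Pparg, Ppara, Ebf2 and Rxra with age in adipocytes, and no factor in FAPs or between depots.

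Whether age acted differently on adipocytes and FAPs was tested by an interaction term with the library as a block. With all libraries in the fit 0 of 10 members passed with an adjusted p under 0.05, against 0.745% of all genes, and 5 had an unadjusted p under 0.05, against 9.87% of all genes. The age effect in adipocytes minus that in FAPs was 1.76 ± 0.75 for Ebf1 (adjusted p = 0.423), -1.84 ± 0.74 for Ebf2 (0.377) and 2.35 ± 0.66 for Klf15 (0.127), on the log2 scale. When VAT replicate 2 was left out, the differences were 1.83, -1.76 and 2.41 and their adjusted p 0.00212, 0.000966 and 0.0255, and without VAT replicate 1 the same 3 genes passed. In these fits the share of all genes called rose to 2.92% and 3.47%. With DESeq2, and without each of the SAT libraries in turn, none of these 3 genes passed, with adjusted p from 0.211 to 0.958. Without a filter on low counts, Ebf1 alone of the members passed, with a difference of 2.02 (adjusted p = 0.0214). Ebf2 was lower with age in adipocytes and higher, though not past the test, in FAPs.

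In the remaining classes few members moved. In T cells, where 13.5% of genes passed with age, Ebf1 was at 90.3 and 101 CPM at 2 months and at 47.7 and 68.2 CPM at 24 months (log2 fold change -0.75 ± 0.25, adjusted p = 0.0490), 1 of 9 members tested. It passed in only 5 of 16 fits. It was lost without either library at 2 months (adjusted p = 0.251 and 0.441), without SAT at 24 months replicate 1 (0.391) or VAT replicate 2 (0.0549), with DESeq2 (0.415) and with the replicate block (0.0735). The 7 B cell markers in these T cells summed to 438 and 442 CPM at 2 months and to 659 and 675 CPM at 24 months. The endothelial markers were at 412 to 538 CPM against 236 to 273 CPM, the mature dendritic markers at 267 to 402 CPM against 68.2 to 71.5 CPM, and the lymph node markers at 152 to 175 CPM against 36.3 to 52.0 CPM. The part of these was not tested. T cells were too few in VAT replicate 1 (13 nuclei) for a depot comparison. In B cells, Ebf1 had 1907 and 2122 CPM at 2 months, 949 and 1787 CPM at 24 months and 1190 and 914 CPM in VAT, and none of the 5 members tested passed with edgeR, against 1.98% of all genes with age and 0.0% between depots.

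In macrophages no member passed with edgeR, where 0.0% of genes passed with age and 0.0217% between depots, and 1 was under an unadjusted 0.05 with age, as were 10.7% of all genes. Ppara had 114 and 105 CPM at 2 months and 7.35 and 36.3 CPM at 24 months (log2 fold change -1.88 ± 0.58, adjusted p = 0.280), the same direction as in adipocytes. Of the 75 macrophages of SAT at 24 months replicate 1, only 1.3% had a Ppara UMI without thinning, so that level is near the floor. Ebf1 had 290 and 246 CPM against 610 and 597 CPM (1.27 ± 0.59, adjusted p = 0.473). Without a sub-cluster of 261 macrophages with Acacb and Cyp2e1 among its leading genes, left out after seeing the data, Ppara fell below the filter on low counts and had no test, Ebf1 had a log2 fold change of 0.90 (adjusted p = 0.547), and that of Pparg went from 0.78 to 1.34 (adjusted p = 0.222). Adipocyte markers summed to 1778 and 3015 CPM in macrophages at 2 months and to 1993 and 4120 CPM at 24 months. Skeletal muscle markers were at 757 to 836 CPM against 154 to 184 CPM in the same sums, T cell markers at 598 to 803 CPM against 86.5 to 368 CPM and mature dendritic markers at 365 to 427 CPM against 45.0 to 235 CPM. The part of these was not tested. Endothelial nuclei gave no call for a member either, with 0.0253% of genes called with age and 0.0% between depots, nor did the nuclei named mesothelial, with 0.0% and 6.69%. Only 3 members were tested in the latter, and for the markers given above neither comparison is one of mesothelial nuclei.

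Nuclei in clusters named epithelial differed between depots in Ppara, at 249 and 152 CPM in VAT against 1.74 and 8.43 CPM in SAT (log2 fold change 5.04 ± 0.66, adjusted p = 0.000427), and in Zfp423, at 16.6 and 97.6 CPM against 4.36 and 10.7 CPM (3.10 ± 0.79, adjusted p = 0.0221), 2 of 9 members tested. Ppara passed in 15 of 15 fits. Zfp423 passed in 10 of 15, and lost the call when any library other than VAT replicate 1 was left out, with a log2 fold change of 0.80 (adjusted p = 0.781) without VAT replicate 2. Here 13.2% of all genes passed, and with age, where no member did, 2.05%. The epithelial markers in these nuclei summed to 316 and 531 CPM in VAT against 3441 and 3796 CPM in SAT. The mesothelial markers were at 4567 and 1964 CPM against 13.1 and 20.8 CPM, and the ovary or oviduct markers at 183 and 4659 CPM against 31.4 and 30.9 CPM. The VAT nuclei under this name, 42 and 73 in number, therefore do not carry the marker pattern of the subcutaneous ones. Of the 42 in VAT replicate 1, 9.5% had a Ppara UMI and 2.4% a Zfp423 UMI without thinning. Both levels in that library thus rest on few nuclei. No member passed with edgeR in the sum of all nuclei (0.0% of genes with age and 0.0138% between depots) or in the sum of all immune nuclei (0.0% in both comparisons).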

How the data were processed

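The authors isolated nuclei, made libraries with the GEXSCOPE single-nucleus kit and aligned reads to GRCm39 with Celescope (version and annotation release not given in the sources used here). The count matrices that the authors deposited give whole UMI numbers for each gene in each nucleus, not normalized. Here, 1000 variable genes without the members, 30 principal components, a Harmony-type correction by library (own implementation) and Leiden clustering (resolution 2.0) gave 40 clusters, named from marker lists. Immune clusters were split again at resolution 1.0. The naming rule was revised after the clusters were seen: immune subtype markers were counted for the immune class, and a lymph node list could block a name. Scrublet (scanpy 1.11.5) marked only 3 to 14 nuclei per library as doublets and was not relied on, so doublets were kept. Counts were summed per library and class with at least 20 nuclei and tested with edgeR 4.0.16 (R 4.3.3): quasi-likelihood F test, TMM, filterByExpr, the 3 groups in 1 fit, Benjamini-Hochberg over all genes. On counts simulated from the adipocyte sums, this test was checked for the recovery of known changes. The simulated counts had the same spread for all genes and no differences in cell mixture. How well the test works on the real libraries was therefore not shown. DESeq2 1.42.0 served as an alternative. Thinning drew 1000 UMIs per nucleus. Named list genes are, per list and direction, up to 4 called genes with the largest change whose libraries do not overlap. Genes shown beside them without a call were chosen after their values were seen. The members and lists were chosen with earlier results of these data known. The study tested nuclei as replicates, which was not followed. For each member the 3 genes with the most similar pattern are named, except a gene that is not reported here.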

Additional observations from a re-analysis of the deposited data

How the results depend on the processing

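Leaving out 1 library at a time gave 1 to 5 members called with age in adipocytes and 3 to 17 list genes. It gave 0 to 1 members and 0 to 2 list genes between depots, 0 to 2 members between depots in FAPs, 0 to 3 in the interaction, and 0 to 3 (age) and 1 to 9 (depot) calls over the other classes. A lone library left in a group is assumed to vary like the others. DESeq2 and the fit without a filter on low counts each called 3 members with age in adipocytes. Over the other classes, with age, DESeq2, the replicate block, members allowed among the variable genes and removal of the highest Scrublet scores (added after seeing the data) gave 0 calls, the fit of the 2 groups alone gave 2 and no filter gave 7. Between depots no filter gave 6 calls. With nuclei over 1500 UMIs and with clusters without Harmony the sum over these classes could not be had, since some classes, the epithelial one between depots among them, had under 20 nuclei in a library. The T cells of VAT replicate 1 were too few to enter any fit, so leaving that library out gave no sum with age. Without a filter 1 list gene was called between depots and 1 member, Ebf1, in the interaction. In all these cases the cause was not tested.

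Deviations of same-numbered libraries had correlations from -0.09 to 0.11. With 2 libraries per group these cannot show which libraries share a mouse. The replicate block called the same 5 members with age in adipocytes. Library-size scaling moved the median of all genes with age to -0.17 (log2), changed the called genes from 869 higher and 972 lower to 662 and 1361, and lost Pparg. Of all genes in adipocytes 1841 passed with age, against 693 without SAT at 2 months replicate 1 and 527 without replicate 2. Between depots 17 passed, against 31 with DESeq2, 31 with the replicate block, 137 without a filter and 2 to 178 when 1 library was left out. The differences in the Ppara share kept their sign under every alternative run. The size of the depot difference depended on the VAT library, with 7.45% in replicate 1 and 4.93% in replicate 2 against a SAT mean of 3.53%.

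Of the recomputed log2 fold changes of members in adipocytes and FAPs, with Ebf1 in T cells by age and Ppara and Zfp423 in epithelial nuclei by depot, 606 kept direction and call, 34 lost the call, 3 gained one and 39 reversed, none of them a called value. Klf15 in adipocytes with age was 0.0067 with DESeq2, 0.24 without a filter, 0.017 with the replicate block, 0.11 over 1500 UMIs and 0.033 without Harmony. In FAPs with age, Ppard was -0.00056 with the replicate block, -0.065 with members allowed and -0.069 without Harmony, and Rxra -0.010 with DESeq2. In FAPs between depots and without Harmony, Cebpb was -0.36 and Ebf2 0.053. Leaving out libraries, the adipocyte values ran with age from -0.55 to 0.75 for Cebpa, -0.83 to 0.042 for Cebpb and -0.092 to 0.15 for Klf15. Between depots they ran from -0.15 to 1.35 for Ppara, -0.68 to 0.19 for Pparg, -0.29 to 0.54 for Cebpb and -0.97 to 0.31 for Zfp423. In FAPs with age they ran from -0.94 to 0.38 for Ppard, -6.51 to 0.62 for Rxra, -6.65 to 1.94 for Cebpa and -0.090 to 1.01 for Cebpb. Between depots in FAPs they ran from -0.63 to 0.71 for Ppard, -0.17 to 6.99 for Rxra, -3.08 to 5.96 for Cebpa, -0.28 to 0.84 for Cebpb, -4.12 to 0.64 for Ebf2 and -0.92 to 0.12 for Zfp423. The values beyond 5 rest on a lone library with 0 UMIs and are no bounds.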
